A study of Mus musculus with 4 samples.

Results

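T cells were examined in the ascending aorta of mice with drug-induced aortic dissection, by droplet single-cell RNA sequencing that counts transcripts by their unique molecular identifiers (UMIs). A barcode counted as a T cell when its summed UMIs of Cd3e, Cd3d and Cd3g, the CD3 chains that carry the antigen receptor's signal, came to at least 2. It also had to hold no Cd79a UMI (B cells), fewer than 3 UMIs of C1qa and C1qb (macrophages), fewer than 3 of Dcn (fibroblasts), under 0.3% of its UMIs in Acta2 and Tagln (smooth muscle) and fewer than 3 of Mki67 and Top2a (dividing cells). This rule found 480 T cells among 40565 barcodes that had at least 200 detected genes and under 20% mitochondrial UMIs, of 41399 barcodes in all. The rule read UMIs cell by cell and no treatment label. Cd3e, Cd3d and Cd3g were not left out of the gene-level test below, but their levels only describe the choice of the cells.

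All mice were wild-type males that drank β-aminopropionitrile (BAPN), which blocks lysyl oxidase and so the cross-linking of elastin and collagen, at a daily 1 g/kg for 4 weeks from 3 weeks of age. The AD group (libraries AD 1 and AD 2) received BAPN alone, and the AD_ABR group (libraries AD_ABR 1 and AD_ABR 2) also received paquinimod, a small molecule that binds S100A9, by gavage at 10 mg/kg per day. No group without BAPN was part of the comparison, so each difference is between diseased aortas with and without the drug. The labels do not say how many mice gave each library or whether the libraries came from separate mice, and p-values measure only the spread between libraries. Among the T cells, no barcode sequence occurred in more than 1 library (0 shared in each pair).

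T cells recognise antigens through an αβ or γδ antigen receptor coupled to the CD3 chains. CD8 T cells kill target cells with granzymes and perforin, CD4 T cells help or, as Foxp3-expressing regulatory cells, restrain other cells, and many γδ T cells in barrier and connective tissue make IL-17A without prior priming. In the aortic wall T cells sit mainly in the adventitia and collect there in dissection and aneurysm.

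The T cells were 233 in AD 1, 144 in AD 2, 30 in AD_ABR 1 and 73 in AD_ABR 2, so the AD_ABR values rest on 103 cells and the AD values on 377. Their median UMI count was 2346 and 2842 in the AD libraries and 4559 and 3595 in the AD_ABR libraries, whereas all other barcodes held medians of 5701 and 7375 in AD against 9540 and 8436 in AD_ABR. The summed T cell UMIs came to 622370, 461219, 142901 and 280106 in the same order. The rRNA-related Rn18s-rs5 held 10.5 and 6.41% of T cell UMIs in the AD libraries, against 2.41 and 1.71% in the AD_ABR libraries. Depth and this share thus moved with the groups, and their part in the differences below was not tested. Shares of cells with a UMI were therefore also computed after each cell was thinned to 1000 UMIs.

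The label held against genes the rule did not use. Trac, the constant region of the receptor α chain, was found in 52.4 and 54.2% of T cells in AD, against 66.7 and 75.3% in AD_ABR. Lck, the kinase that starts receptor signalling, was found in 38.2, 43.1, 46.7 and 63.0%. A cell type that should lack both genes gave the background: among smooth muscle barcodes (at least 1% of UMIs in Acta2 and Tagln, median depths of 8206 to 10639 UMIs) Trac was seen in 0.304 to 1.22% and Lck in 0.0552 to 0.375%. A UMI of any receptor constant gene was present in 217 of 233, 141 of 144, 30 of 30 and 72 of 73 T cells. The thymocyte gene Rag1 was at 0 in the T cells of all 4 libraries.

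Just outside the rule, barcodes with 1 CD3 UMI that met its other limits numbered 60, 15, 4 and 3, of which 39, 4, 2 and 2 held a receptor constant UMI. Just inside it, barcodes with 2 CD3 UMIs numbered 65, 11, 2 and 4, of which 57, 11, 2 and 3 did. The exclusions removed 84 of 564 barcodes with at least 2 CD3 UMIs, among them 35 for Dcn and 26 for Mki67 and Top2a.

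Markers of other cells were not evenly spread among the T cells. The 5 Schwann cell markers summed to 70.7 and 141 CPM (UMIs per 1000000 UMIs of the T cells) in AD and to 2806 and 750 CPM in AD_ABR, where nearly all of it sat in 1 barcode per library. The 6 neutrophil markers summed to 752 CPM in AD 1, with S100a8 in 29 cells, against 4.34 CPM in AD 2, 0 in AD_ABR 1 and 3.57 CPM in AD_ABR 2. The 8 dendritic cell markers, which include the MHC class II genes, summed to 1628 and 685 CPM in AD and to 133 and 125 CPM in AD_ABR, while Xcr1 and Clec9a were at 0 in every library. The 6 natural killer markers summed to 20.9 and 26.0 CPM in AD and to 98.0 and 39.3 CPM in AD_ABR, with a UMI in 3.43, 6.25, 16.7 and 10.96% of T cells; Ncr1 and Klra4 were at 0 in all 4 libraries. The 8 macrophage markers ranged from 208 to 458 CPM. Genes of these lists are read below with that in view.

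T cells made up a smaller part of the barcodes in both libraries of the paquinimod group. They were 2.34% of kept barcodes in AD 1 (Clopper-Pearson 95% interval 2.05 to 2.66%) and 1.35% in AD 2 (1.14 to 1.58%). They were 0.329% in AD_ABR 1 (0.222 to 0.469%) and 0.676% in AD_ABR 2 (0.530 to 0.849%). These intervals cover counting error only, and both AD_ABR libraries lay below both AD libraries. The mean was 1.84% ± 0.705 (SD, n = 2) in AD and 0.502% ± 0.245 (SD, n = 2) in AD_ABR, 3.67 times lower. The exact two-sided permutation test gave p = 0.33, the smallest value that 2 against 2 libraries can give.

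Among barcodes with a UMI of Ptprc, the pan-leukocyte gene CD45, the T cell share did not separate the groups. It was 4.22 and 5.63% in AD against 4.17 and 5.25% in AD_ABR, with means of 4.92% ± 0.994 and 4.71% ± 0.769 (SD, n = 2 each; exact permutation p = 0.667). Ptprc was detected in 42.2 and 19.8% of all kept barcodes in AD and in 7.11 and 11.4% in AD_ABR. A Ptprc UMI does not by itself mark a leukocyte, since 7.13 and 3.03% of smooth muscle barcodes in AD and 1.25 and 2.27% in AD_ABR also held one. The source of those UMIs was not tested.

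B cells, chosen by a matching rule on Cd79a and Cd79b, numbered 300, 176, 19 and 37. T cells per B cell were therefore 0.777 and 0.818 in AD and 1.58 and 1.97 in AD_ABR, a mean ratio 2.23 times higher after paquinimod (0.797 ± 0.0294 against 1.78 ± 0.279, SD, n = 2 each). The groups did not overlap, and the exact permutation p was again 0.33. The B cell share of kept barcodes was 8.46 times lower in AD_ABR than in AD, beside 3.67 times for T cells.

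**Figure D1:**
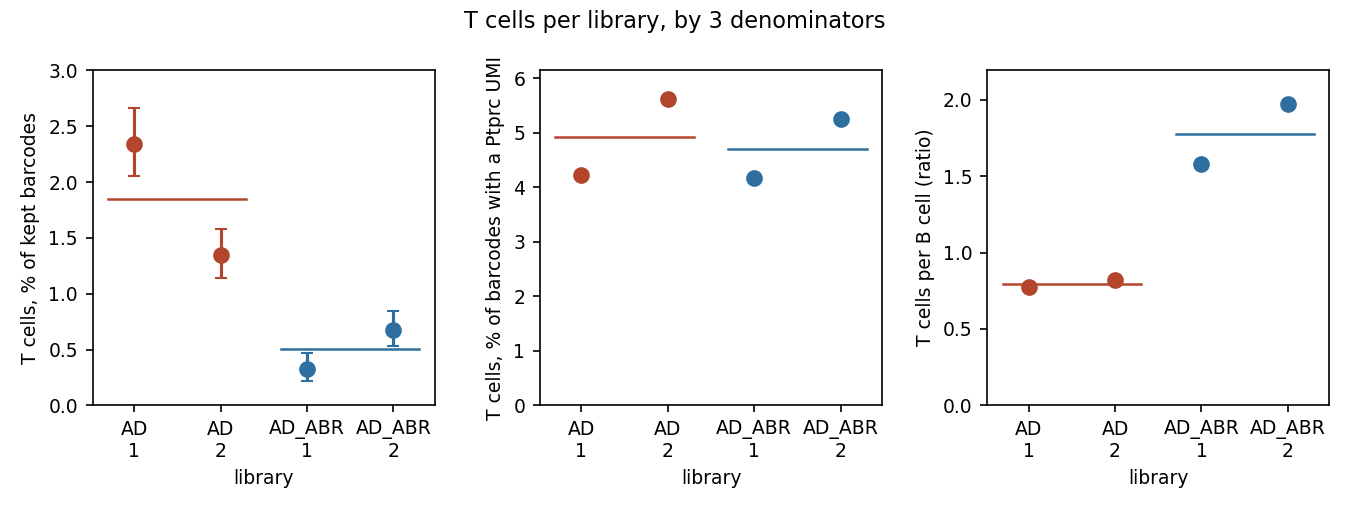
T cells in each library (x axis) by 3 denominators: per cent of kept barcodes with Clopper-Pearson 95% intervals (left), per cent of barcodes with a Ptprc UMI (middle) and the ratio to B cells (right). Points are libraries and lines are group means: AD_ABR libraries lie below AD on the left (0.329 and 0.676% against 2.34 and 1.35%), overlap AD in the middle and lie above AD on the right.

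The T cells fell into receptor and co-receptor classes by UMIs of genes outside the rule. A Trdc UMI, from the constant region of the δ chain, placed 62 cells in a Trdc class. Of the rest, 101 held Cd8a or Cd8b1 without Cd4 (CD8 class), 62 held Cd4 without those (CD4 class), 1 held both and 254 held none of the 4 genes. The last class is set by the absence of UMIs and is not a cell type.

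Cells of the Trdc class carried an IL-17 programme. With the cells of all 4 libraries summed, Il17a reached 771 CPM in the Trdc class against 0 in the CD8 class and 37.6 CPM in the CD4 class. By library, Il17a in the Trdc class was 558 and 702 CPM in AD and 855 and 1397 CPM in AD_ABR. The AD_ABR values rest on 8 and 5 Trdc cells, with Il17a in 3 of them in each library. A single T cell held 17 of the 32 Il17a UMIs in AD_ABR 1, and another 19 of the 37 in AD_ABR 2. The γ-chain gene Trgc1 (361 against 5.31 and 0 CPM in CD8 and CD4), the kinase Blk (282 against 2.66 and 0 CPM) and the IL-1 receptor Il1r1 (168 against 7.98 and 0 CPM) showed the same order. Trdv4, a δ-chain variable gene, was detected in 35 cells, all of them in the Trdc class, and 17 of those 35 held Il17a and 26 held Trgc1. Of the 36 cells with an Il17a UMI, 25 (69.4%) held Trdc, against 8.33% of the other T cells.

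The Trdc class was also higher in genes of tissue-lodged and memory cells. Il7r, the interleukin-7 receptor, was at 1142 CPM in the Trdc class, 404 in CD8 and 440 in CD4. Cxcr6, a chemokine receptor of tissue-lodged lymphocytes, was at 544, 138 and 64.4 CPM, and Ramp1, a subunit of the receptor for the neuropeptide CGRP, at 534, 50.5 and 91.2 CPM. S100a4, a calcium-binding protein of effector and memory cells, was at 1315, 244 and 413 CPM. Il17a, Trgc1, Blk, Cxcr6, Il7r, S100a4 and Ramp1 were higher in the Trdc than in the CD4 class in 4 of 4 libraries. The CD4 class held only 2 cells in AD_ABR 1 and 5 in AD_ABR 2. The exact paired permutation test over the 4 libraries, on log2(CPM + 10), then gave p = 0.125, the smallest it can give. Of the 144 comparisons computed (48 genes, 3 class pairs), 66 reached this p.

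The CD8 class carried effector genes, beside some genes of naive and recirculating cells. Ccl5, the chemokine RANTES, was at 5525 CPM in CD8 cells against 529 in Trdc and 607 in CD4 cells. Nkg7, a protein of cytotoxic granules, was at 855 against 129 and 123 CPM. Ccl5 in CD8 cells ranged from 530 CPM in AD 1 through 5131 in AD 2 to 6671 and 8575 CPM in the AD_ABR libraries. Of the 101 CD8 cells, 58 (57.4%) held at least 2 UMIs of Gzma, Gzmb, Prf1 and Nkg7. Among genes of naive and recirculating cells, Dapl1 was at 133 CPM in CD8 against 24.7 in Trdc and 21.5 in CD4 cells. Lef1 was at 260 against 44.5 and 215 CPM. S1pr1 (173 against 64.3 and 209 CPM) and Il7r, given above, were higher in CD4 than in CD8 cells.

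The CD4 class and the class without these genes held the regulatory cells. Foxp3, the transcription factor of regulatory T cells, was found in 37 cells, 13 of the 62 CD4 cells and 23 of the 254 cells with none of the class genes. Among the 37, Ikzf2 (Helios) was present in 29 (78.4%, against 26.9% of the other T cells), the inhibitory receptor Ctla4 in 24 (64.9% against 14.9%) and the co-stimulatory receptor Tnfrsf4 (OX40) in 24 (64.9% against 11.3%). Il1rl1, the receptor for interleukin-33, was present in 11 (29.7% against 2.26%). These shares pool the libraries, and 30 of the 37 cells came from AD 1. Tnfrsf4 reached 510 CPM in the CD4 class, 184 in the class with none, 7.98 in CD8 and 0 in Trdc.

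**Figure D2:**
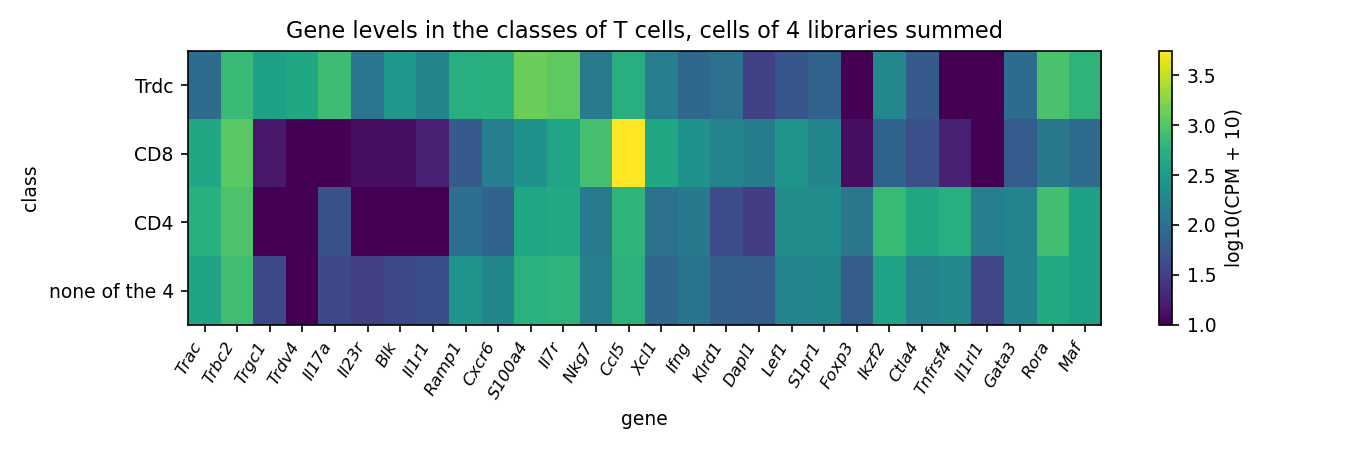
Levels of 28 genes (x axis) in 4 classes of T cells (y axis), as log10(CPM + 10) of the summed UMIs of the cells of 4 libraries. The Trdc row is bright for Trgc1, Trdv4, Il17a, Blk and Il1r1, the CD8 row for Nkg7 and Ccl5, and the CD4 row for Ikzf2, Ctla4 and Tnfrsf4.

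CD8 and cytotoxic cells made up more of the T cells in both AD_ABR libraries than in either AD library. CD8 cells were 13.3 and 21.5% of T cells in AD and 33.3 and 39.7% in AD_ABR (17.4% ± 5.81 against 36.5% ± 4.52, SD, n = 2 each). At 1000 UMIs a cell, which left out 3 cells of AD 1 and none of the other libraries, they were 10.0 and 15.3% against 26.7 and 20.5%. The groups did not overlap at either depth, and the difference of 19.1 percentage points was 10.97 after thinning. Cytotoxic cells, those with at least 2 UMIs of Gzma, Gzmb, Prf1 and Nkg7, were 10.3 and 20.8% in AD and 33.3 and 53.4% in AD_ABR. Thinned, they were 3.48 and 4.17% against 23.3 and 20.5%, again without overlap. The exact permutation p was 0.33 for both subsets (0.800 adjusted over 12 subsets, not all of them reported here), which is the floor of the design. At most 0.166% of smooth muscle barcodes met either definition.

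Cd4-bearing cells were 17.2 and 10.4% of T cells in AD and 6.67 and 6.85% in AD_ABR at full depth, but 8.26, 2.78, 3.33 and 2.74% after thinning, where the groups overlapped. At 500 UMIs they were 4.29 and 2.08% in AD against 0 of 30 and 0 of 73 cells, which allows shares of up to 10.0 and 4.11%, so whether the groups overlapped depended on the depth.

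Shares of Trdc cells and of Foxp3 cells overlapped between the groups. Trdc cells were 6.01 and 24.3% of T cells in AD and 26.7 and 6.85% in AD_ABR. Libraries of 1 group thus differed more than the group means did (15.2% in AD and 16.8% in AD_ABR). Foxp3 cells were 12.9, 2.78, 6.67 and 1.37%. The counts behind these shares were 30, 4, 2 and 1 cells. Cells with Cxcr6, Itgae or Itga1 were 27.5 to 43.3% of T cells, and 65.4 to 71.6% of smooth muscle barcodes met the same definition, so it does not mark T cells.

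**Figure D3:**
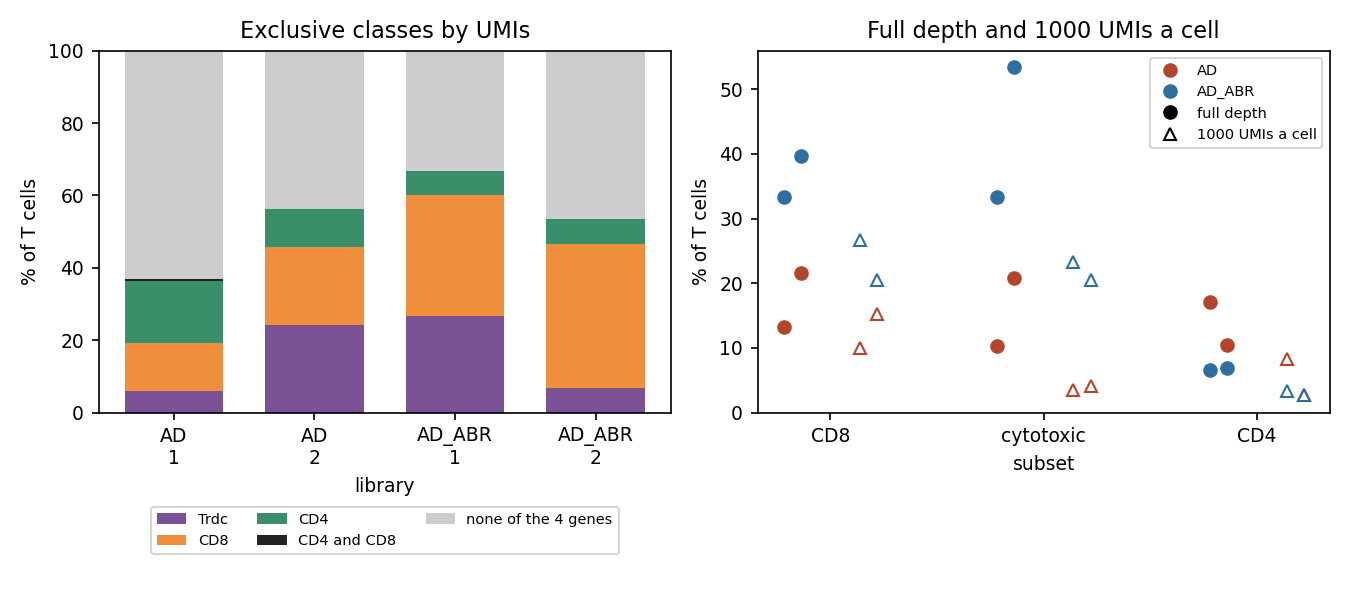
Left, exclusive classes as per cent of T cells (y axis) in each library (x axis). Right, 3 subsets at full depth (circles) and thinned to 1000 UMIs a cell (triangles), 1 symbol per library: CD8 and cytotoxic shares stay apart between the groups after thinning, and CD4 shares overlap.

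Gene levels were compared in UMIs summed over the T cells of each library, as AD_ABR minus AD, with edgeR's quasi-likelihood test. Of 4802 genes tested, 6 rose (0.125%) and 8 fell (0.167%) at a Benjamini-Hochberg adjusted p under 0.05, together 0.292%, and 398 genes had an unadjusted p under 0.05. In bulk sums of this kind, fewer expressing cells and less RNA per cell cannot be told apart, so numbers of cells are given beside the levels. Among them were Gzma, Mal, Kcna1, Pmp22 and Cryab, which rose, and Tnfrsf4, Isg15, Rgs16, Mir6236, Cd74, H2-Ab1, H2-Eb1 and Wfdc17, which fell. Without AD_ABR 1 the calls numbered 8 and kept 4 of the 14 (Rgs16, Pmp22, Gzma and Cd74). Without AD_ABR 2 they numbered 17, without AD 1 31 and without AD 2 255.

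The first promoters are shown for genes on which the results turn: Gzma, which rose, Isg15, which fell, and Nfkbia, an NF-κB feedback gene of a group described below. They are the 250 bases before the RefSeq start site on GRCm38.p6, written 5′ to 3′ on the gene's strand (chr13:113100982-113101231, chr4:156200819-156201068 and chr12:55492648-55492897, minus strand for all), with motif matches in capitals.
Gzma: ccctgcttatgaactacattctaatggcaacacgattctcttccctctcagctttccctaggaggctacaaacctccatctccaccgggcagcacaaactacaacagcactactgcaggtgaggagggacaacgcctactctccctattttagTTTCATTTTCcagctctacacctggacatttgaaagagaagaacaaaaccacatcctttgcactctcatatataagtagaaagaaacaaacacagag
Isg15: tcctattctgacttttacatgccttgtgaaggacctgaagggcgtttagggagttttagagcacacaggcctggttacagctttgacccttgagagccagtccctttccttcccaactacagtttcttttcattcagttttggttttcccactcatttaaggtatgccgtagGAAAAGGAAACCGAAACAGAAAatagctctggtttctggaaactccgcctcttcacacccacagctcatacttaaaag
Nfkbia: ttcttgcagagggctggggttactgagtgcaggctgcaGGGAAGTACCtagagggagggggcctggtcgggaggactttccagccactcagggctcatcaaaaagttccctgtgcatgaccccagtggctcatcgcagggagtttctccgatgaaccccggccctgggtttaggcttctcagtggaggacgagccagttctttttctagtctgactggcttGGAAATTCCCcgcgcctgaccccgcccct
Windows of 300 bases (250 before to 50 after the start) were searched on both strands for GGGA and CC with any 4 bases between (NF-κB), GAAA and GAAA with any 2 bases between (interferon-stimulated response element, ISRE) and TGANTCA (AP-1). Isg15 held 3 ISRE matches that overlap each other, starting 78, 72 and 66 bases before the start site. Nfkbia held 2 NF-κB matches, 1 of them on the strand opposite to the printed one. Gzma held 1 ISRE match, also on the opposite strand, and Tnfrsf4 held none of the 3 motifs. Over 32851 promoters, 20.7% held the NF-κB letters, 3.44% the ISRE letters and 7.81% the AP-1 letters. A match is a description of the letters only.

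Gzma encodes granzyme A, a serine protease of cytotoxic granules (ENSMUSG00000023132, GRCm38 chromosome 13, 113093825 to 113100981, minus strand, protein coding). Its level in T cells was 1.61 and 4.34 CPM in AD and 609 and 421 CPM in AD_ABR. The AD values were 1 and 2 UMIs in 1 cell each, and the AD_ABR values 87 UMIs in 2 cells and 118 UMIs in 10 cells. A single cell held 77 of the 87 UMIs in AD_ABR 1, and another 48 of the 118 in AD_ABR 2. Gzma was thus a matter of 12 of 103 T cells after paquinimod and 2 of 377 with BAPN alone. The fitted log2 fold change was 7.28 (SE 0.50, edgeR adjusted p = 2.08e-05). The ratio of the summed UMIs was 175, with a counting interval of 59.1 to 856 because AD held 3 UMIs in all. Gzma passed under each of the 13 alternatives run.

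The 14 cells with Gzma carried other genes of killer lymphocytes. Ccl5 was found in 12 of the 14 (85.7%, against 22.7% of the other T cells), Nkg7 in 10 and the lectin receptor gene Klrd1 in 8. Gzmb and the natural killer receptor gene Klrc1 were each found in 8. Of further genes of natural killer cells, Klre1 was found in 4 (28.6% against 1.07% of the other T cells), Fcer1g in 3 (21.4% against 9.23%) and Ncr1 in 0. The natural killer markers given above were thus higher in the AD_ABR libraries together with Gzma, and their part in its rise was not tested. Receptor transcripts were present too, Trbc2 in 11 and Trac in 8 cells. By class, 7 were CD8 cells, 2 CD4, 1 Trdc and 4 none. These shares pool the libraries, and 10 of the 14 cells came from AD_ABR 2. In that library Ccl5 was found in 49.3%, Nkg7 in 54.8% and Klrd1 in 35.6% of all T cells.

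Of the 13 cytotoxicity genes on the list, 10 were tested, 1 rose (Gzma) and 0 fell. All 10 tested members had a positive fold change, with a median log2 fold change of 1.54 beside -0.01 over all genes tested. Both AD_ABR libraries lay above both AD libraries for 7 of the 10, beside 22.7% of all genes tested. Nkg7 was 182 and 228 CPM in AD and 602 and 603 CPM in AD_ABR, a log2 difference of 1.49 (SE 0.28) that missed the threshold (edgeR adjusted p = 0.053). It passed under 7 alternatives, among them DESeq2 (adjusted p = 0.009) and the fits without AD 1 or AD 2, which each left 1 AD library. Klrd1 (53.0 and 52.0 against 161 and 175 CPM) gave 1.60 (SE 0.33, adjusted p = 0.071). Gzmb (41.8 and 39.0 against 168 and 99.96 CPM) gave 1.59 and Klrc1 2.23, with adjusted p of 0.211 and 0.257. Ccl5 (352 and 1656 against 2799 and 4762 CPM) gave 1.88 with an SE of 0.87 (adjusted p = 0.660), with the AD libraries far apart. Its log2 difference was 1.16 without AD 1 and 3.28 without AD 2. Each of these fits left 1 AD library and so no spread within AD. Whether Klrd1, Gzmb and Klrc1 passed depended on the library left out.

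The co-receptor genes showed the same order without passing. Cd8a was 56.2 and 78.1 CPM in AD and 140 and 143 CPM in AD_ABR (log2 1.01, SE 0.34), and Cd8b1 80.3 and 167 against 245 and 286 CPM (1.07, SE 0.35), each with an edgeR adjusted p of 0.391. Cd4 was 86.8 and 45.5 against 13.996 and 21.4 CPM (-1.91, SE 0.57, adjusted p = 0.349). Without AD 2, which left AD 1 as the only AD library, the log2 difference was 1.59 for Cd8b1 and -2.33 for Cd4.

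Tnfrsf4 encodes OX40, a co-stimulatory receptor of activated and regulatory T cells (ENSMUSG00000029075, chromosome 4, 156013843 to 156016612, plus strand, protein coding). It was 159 and 256 CPM in AD and 35.0 and 46.4 CPM in AD_ABR, carried by 41, 26, 1 and 6 cells. The groups did not overlap, and the log2 fold change was -2.35 (SE 0.39, edgeR adjusted p = 0.041). No cell held more than 19.5% of its UMIs in either AD library. The call was lost without AD_ABR 1 (adjusted p = 0.095), without AD_ABR 2 (0.058) and with each cell capped at 5 UMIs a gene (0.078). Of the 74 cells with Tnfrsf4, 52 held Ikzf2, 33 Tnfrsf9 (4-1BB, another co-stimulatory receptor) and 24 Foxp3.

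Rgs16, a brake on G-protein-coupled receptors that activation induces in T cells, was 254 and 102 CPM in AD and 20.99 and 3.57 CPM in AD_ABR (ENSMUSG00000026475, chromosome 1, 153740349 to 153745468, plus strand). It came from 35 and 11 cells in AD and 1 cell in each AD_ABR library, and 1 cell held 64 of the 158 UMIs in AD 1. The log2 fold change was -4.26 (SE 0.74, edgeR adjusted p = 0.042), lost without AD_ABR 2 (-3.15, adjusted p = 0.108), with at least 3 CD3 UMIs (-5.88, 0.067), with stricter exclusion of other lineages (-3.28, 0.151) and with the cap of 5 UMIs (-3.44, 0.110). Of the 48 cells with Rgs16, 21 held Tnfrsf4 and 20 held Tnfrsf9.

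Of the 19 activation genes, all tested, 1 fell (Tnfrsf4) and 0 rose. Negative fold changes were seen for 17, with a median of -0.84, and both AD_ABR libraries lay below both AD libraries for 11, beside 16.8% of all genes tested. Tnfrsf9 was 108 and 71.5 CPM against 6.998 and 17.9 CPM (-2.75, SE 0.56, edgeR adjusted p = 0.071). Il2ra, the interleukin-2 receptor α chain, was 140 and 113 against 63.0 and 42.8 CPM (-1.40, adjusted p = 0.288). With AD 1 as the only AD library, Tnfrsf9 gave -3.05 and Il2ra -1.61.

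None of the 17 NF-κB subunit and feedback genes passed the edgeR test. Negative fold changes were seen for 16 of them, with a median of -0.84, and 13 lay below both AD libraries in both AD_ABR libraries, beside 16.8% of all genes tested. Nfkbiz, an inducible co-regulator, was 469 and 304 against 133 and 121 CPM (-1.70, SE 0.35, adjusted p = 0.071). Nfkbia, the inhibitor IκBα whose promoter is printed above, was 1396 and 1294 against 931 and 668 CPM (-0.84, SE 0.25, adjusted p = 0.347). Rel, the c-Rel subunit, was 595 and 330 against 231 and 143 CPM (-1.44, adjusted p = 0.260), and Tnfaip3 (A20) gave -0.68. Fitted with AD 1 as the only AD library, Nfkbiz gave -2.04, Nfkbia -0.96 and Rel -1.86. The 19 immediate early and dissociation stress genes moved beside this group: 18 had negative fold changes (median -0.56), and 0 passed. Their part in the difference was not tested.

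Of 9 regulatory T cell genes tested, 1 fell (Tnfrsf4, also on the activation list) and 0 rose. Their median log2 fold change was -1.89, 8 were negative and 7 lay below both AD libraries, beside a median of -0.01 and 16.8% over all genes tested. Ikzf2 was 545 and 176 against 63.0 and 136 CPM (-1.89, SE 0.59, edgeR adjusted p = 0.406). Ctla4 gave -1.36 (adjusted p = 0.608) and Areg, a growth factor of tissue-repair cells, -1.92 (adjusted p = 0.349). Il1rl1 was 49.8 and 32.5 against 6.998 and 0 CPM (-4.03, adjusted p = 0.163), and Gata3, the regulator of type 2 cells, 186 and 97.6 against 63.0 and 49.98 CPM (-1.46, adjusted p = 0.347). When AD 1 was the only AD library, Ikzf2 gave -2.501, Ctla4 -1.90, Il1rl1 -4.31 and Gata3 -1.90. Areg gave -2.29 without AD 1.

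Isg15, an interferon-induced ubiquitin-like protein, fell (ENSMUSG00000035692, chromosome 4, 156199424 to 156200818, minus strand, protein coding). It was 334 and 150 CPM in AD and 35.0 and 46.4 CPM in AD_ABR, in 76, 35, 4 and 9 cells. The log2 fold change was -2.62 (SE 0.48) at an edgeR adjusted p of 0.0495. The call was lost without AD_ABR 1 (adjusted p = 0.112), without AD_ABR 2 (0.060), without TMM factors (0.066), under 10% mitochondrial UMIs (0.055), with stricter exclusion (0.051) and with the cap of 5 UMIs (0.070). Isg15 was found in 32.6, 24.3, 13.3 and 12.3% of T cells and in 7.29 to 9.76% of the deeper smooth muscle barcodes. Of 11 interferon response genes tested, 1 fell and 0 rose. Their median was -0.68, and 5 lay below both AD libraries, beside 16.8% of all genes tested. Ifi27l2a gave -0.68 (adjusted p = 0.535).

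Cd74, H2-Ab1 and H2-Eb1, the MHC class II invariant chain and chains, fell, and their UMIs came largely from few barcodes. Cd74 was 877 and 373 CPM in AD and 55.98 and 49.98 CPM in AD_ABR (log2 -3.67, SE 0.49, edgeR adjusted p = 0.014). A single barcode held 211 of its 546 UMIs in AD 1 and another 143 of 172 in AD 2. With stricter exclusion of other lineages the Cd74 difference was -1.32 (adjusted p = 0.397). With each cell capped at 5 UMIs a gene the Cd74 difference was -1.45 (adjusted p = 0.374), and for H2-Ab1 it went from -3.01 to -0.91 (0.723). All other barcodes held more Cd74 than T cells did, 811 to 1953 CPM. H2-Ab1 (adjusted p = 0.075) and H2-Eb1 (0.089) lost their calls without AD_ABR 1. The dendritic cell markers given above include Cd74 and H2-Ab1, so their sum is not separate from these genes.

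Wfdc17, expressed by myeloid cells, held 42 and 32 UMIs in AD and 0 and 2 in AD_ABR, with 27 of the 32 in 1 barcode. Its call was lost without AD_ABR 1 (-3.26, edgeR adjusted p = 0.092), without TMM factors (0.066) and with DESeq2 (0.240), and with stricter exclusion or the cap it was no longer among the genes tested. Mir6236 is annotated as a microRNA gene, but the naming rule set it aside with rRNA-related genes such as Rn18s-rs5. It was 1661 and 659 CPM in AD and 175 and 186 CPM in AD_ABR (-2.78, edgeR adjusted p = 0.038). It was found in 94.0 and 83.3% of T cells in AD and moved with Rn18s-rs5. Its call was lost without AD_ABR 1 (adjusted p = 0.125) or AD_ABR 2 (0.060) and with stricter exclusion (0.076).

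The other genes named here that rose are known from myelinating glia, and most of their UMIs came from 1 barcode per AD_ABR library. Kcna1, a potassium channel, held 0 and 2 UMIs in AD and 24 and 17 in AD_ABR, all 24 and all 17 in 1 barcode. Mal, a myelin protein, held 11 and 13 UMIs in AD_ABR, again in 1 barcode per library, and was at 0 in AD (at least 20.5-fold higher, taking 3 UMIs over the AD group as the floor). Pmp22 (77 and 48 UMIs) and Cryab (36 and 39 UMIs) came mainly from 1 barcode, which held 76, 46, 33 and 32 of those. Pmp22 and Cryab were higher in the other barcodes than in T cells in each library but AD_ABR 1 for Pmp22. When the 6 T cells with more than 2 UMIs of Schwann cell markers were left out, 11 genes were called, and Kcna1, Mal, Pmp22 and Cryab were not among them. Without AD_ABR 1 the calls of Kcna1 (edgeR adjusted p = 0.185) and Cryab (0.114) were lost. Mal was not among the genes tested when either AD_ABR library was left out.

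**Figure D4:**
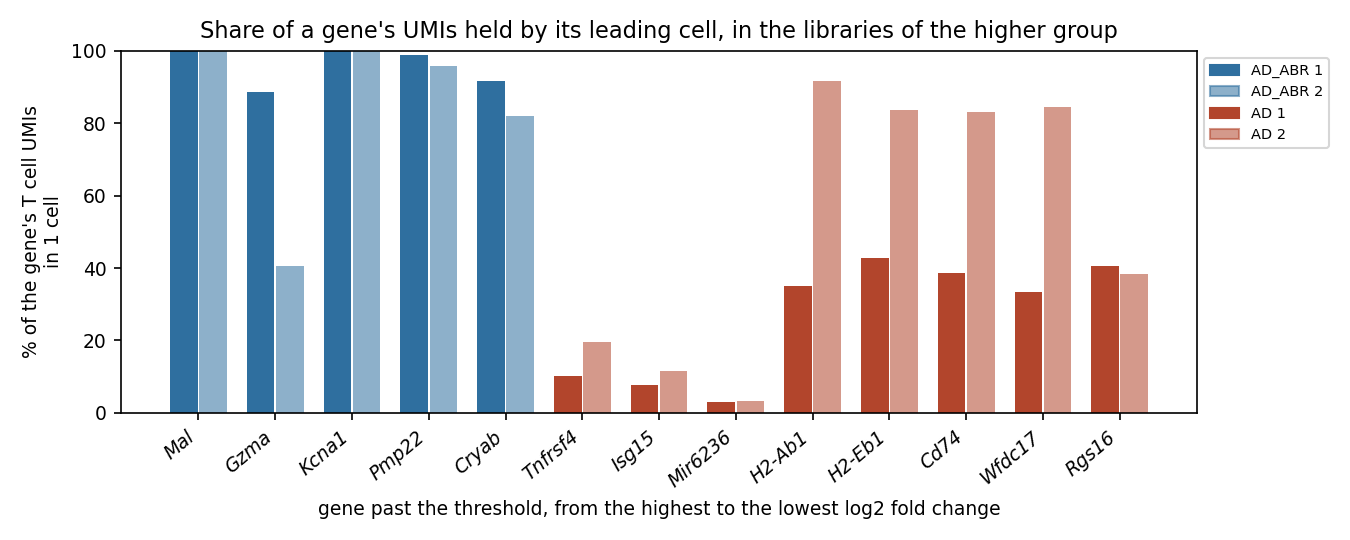
Per cent of a gene's T cell UMIs held by its leading cell (y axis) for 13 of the 14 genes past the threshold (x axis), in both libraries of the group where the gene was higher. Mal, Kcna1, Pmp22 and Cryab came mainly from 1 barcode per library, and Tnfrsf4, Isg15 and Mir6236 from many (at most 19.5%).

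In the remaining lists, T cell identity among them, no gene passed the threshold, though not all of their medians were small. Of 18 T cell identity genes, 0 passed, and their median log2 fold change was 0.17. The list includes Cd3e, Cd3d and Cd3g, by which the cells were chosen, so this count and median do not test the label. The rule's own genes stood at 482, 388, 462 and 332 CPM for Cd3e, which describes the choice of the cells. Trac was 378 and 338 against 350 and 468 CPM (0.13, SE 0.29, edgeR adjusted p = 0.932). Of 10 naive and recirculating genes 0 passed, with a median of 0.30. Ms4a4b, a membrane protein of resting T cells, was 219 and 330 against 581 and 671 CPM (1.14, adjusted p = 0.217), and Lef1 gave 0.73. Ms4a4b gave 1.38 with AD 1 as the only AD library. Of 8 γδ and IL-17 genes 0 passed, with a median of 0.33. Trdc was 81.9 and 423 against 532 and 82.1 CPM, a difference of 0.17 with an SE of 1.30, and Il17a 56.2 and 176 against 224 and 132 CPM (0.55, adjusted p = 0.798). Il17a gave 1.44 without AD 2 and -0.07 without AD 1.

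Of the S100 family and S100A9 receptor genes, 6 were tested, 0 passed, and the median was 0.34. S100a8 and S100a9, the subunits of calprotectin, did not reach the filter on low counts: S100a8 held UMIs in 29 T cells of AD 1, 1 of AD 2 and 0 of the AD_ABR libraries. S100a4 was 435 and 694 against 826 and 503 CPM. Glucocorticoid response genes (16 tested), oxidative phosphorylation genes (21), glycolysis genes (13) and apoptosis and survival genes (13) had medians of -0.01, 0.18, -0.32 and -0.25, with 0 past the threshold in each. None passed either among residency (9 tested, median -0.45), Th1 (7, -0.05), type 2 (3, -1.46), inhibitory receptor (3, -0.78), chemokine receptor and adhesion (14, 0.07), cytokine (12, -0.14) and sterol synthesis genes (12, -0.51).

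**Figure D5:**
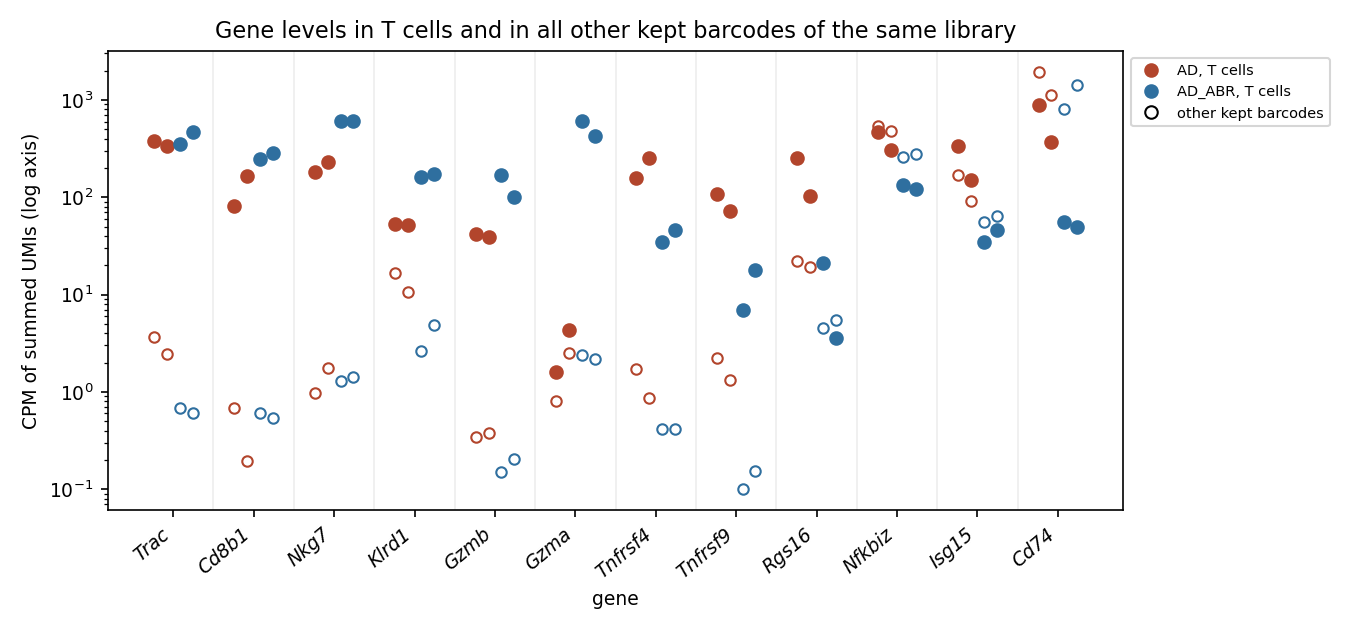
Level of 12 genes (x axis) in T cells (filled points) and in all other kept barcodes (open points) of the 4 libraries, as CPM on a log axis (y axis). Nkg7, Klrd1, Gzmb and Gzma lie higher in the T cells of both AD_ABR libraries, and Tnfrsf4, Tnfrsf9, Rgs16, Nfkbiz, Isg15 and Cd74 lower, with Cd74 higher in other barcodes than in T cells.

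Whether a change in T cells differed from that in the rest of the same aorta was tested as an interaction over T cells and all other kept barcodes, with the library as a block. Of 18581 genes, 188 passed (1.01%), 105 with a higher (0.565%) and 83 with a lower change in T cells (0.447%), by edgeR. Without TMM factors the split was 158 higher and 39 lower. The level in T cells was at least that in other barcodes for 121 of the 188. Of these, 99 were positive, and in 92 of the 99 the other barcodes of both AD_ABR libraries lay below those of both AD libraries. Without AD 1 the number of calls was 51, without AD_ABR 1 66 and without AD_ABR 2 60.

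Of the 6 genes of lowest adjusted p with a higher change that were at least as high in T cells, Gzma alone passed the test within T cells. Ltb, the membrane cytokine lymphotoxin β, was 405, 566, 819 and 453 CPM in T cells and 24.4, 9.73, 2.10 and 2.27 CPM in the other barcodes (interaction log2 2.91, edgeR adjusted p = 1.29e-14). Cd69, an early activation and retention receptor, was 606, 531, 707 and 478 CPM in T cells and 29.0, 10.0, 2.59 and 3.76 CPM elsewhere (2.22, adjusted p = 8.45e-09). Ccr7 (2.64), Trbc1 (2.49) and Ptprcap (2.497), a partner of CD45, behaved alike, and these 5 genes passed without any 1 library. The shares of T and B cells were also lower in the AD_ABR libraries, and their part in these differences was not tested. Gzma differed by 6.70 (adjusted p = 6.64e-21), with 0.809 to 2.49 CPM in the other barcodes of all libraries.

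Lower in T cells than elsewhere was the change of Ramp1 and Rora. Rora, a nuclear receptor of innate-like and tissue lymphocytes, was 437 and 700 against 329 and 261 CPM in T cells (-1.02, edgeR adjusted p = 0.349). Elsewhere Rora was 104 and 123 against 226 and 198 CPM (interaction -2.08, adjusted p = 7.82e-08). Ramp1 was 191, 314, 301 and 96.4 CPM in T cells and 69.6, 125, 333 and 291 CPM elsewhere (-2.48, adjusted p = 1.32e-09), a call lost without AD_ABR 2 (-1.77, adjusted p = 0.063). Isg15 fell further in T cells than in the other barcodes, where it was 168, 91.2, 55.6 and 63.9 CPM (-1.64, adjusted p = 0.0189). That call was lost without AD 1 (0.593), AD_ABR 1 (0.542) or AD_ABR 2 (0.640). Hspa1a, a heat-shock gene, was 4782 CPM in the T cells of AD 1 against 928, 602 and 536 CPM, and its call (-1.60) was lost without AD 1 (-0.89, adjusted p = 0.424). Hspa1b and Ikzf2 (-1.66 and -1.89) were also among the lowest, and their calls were lost without AD 1 or AD_ABR 1. The chemokine gene Ccl1 passed with 66 UMIs in the T cells of AD 1, 65 of them in 1 cell, and 0 in the other 3 libraries, so its fitted difference is no bound.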

How the data were processed

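Droplet 3′ single-cell RNA sequencing gave 1 library per sample, 4 in all, in 2 groups taken from the sample titles. The values are UMI counts as deposited by the authors, whole numbers without normalization, and Cell Ranger 7.1.0 wrote them, per the file headers. STAR, Cell Ranger 6.0, Seurat 4.0 and GRCm38 are named per the submitters' processing notes, and any further filter of the authors is not given in the sources used here.

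T cells were chosen by the rule stated above. No doublet caller was run; the rule's lineage limits and a stricter exclusion served instead, the latter leaving out T cells with more than 3 times their library's median UMIs or with UMIs of further lineage markers. UMIs were summed per library, since cells are not replicates, and tested with edgeR 4.0.16 in R 4.3.3 (TMM, filterByExpr, robust quasi-likelihood F test, Benjamini-Hochberg adjustment, threshold 0.05). The interaction fit compared T cells with all other kept barcodes. CPM are a gene's UMIs per 1000000 summed UMIs, and SDs are over 2 libraries. Shares were compared by exact permutation over 4 libraries. The class comparisons, with 10 CPM added, were an exact paired test chosen after seeing the data.

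Genes were named by a rule. It took up to 12 past the threshold per direction whose T cell level was at least that of other barcodes. Gene models and ribosomal, rRNA-related and mitochondrial genes were left out of these. Every list gene that passed was added, with up to 4 unpassed genes of highest level per list, and the markers and subset genes. The last were the 6 of lowest adjusted p per direction of the interaction, again at least as high in T cells. Pmp22, Cryab, Cd74, H2-Ab1, H2-Eb1, Wfdc17 and Mir6236 complete the calls reported; some items that the rule names are not reported here. Klrd1, Klrc1, Tnfrsf9, Il2ra, Areg, S100a8 and the genes set beside the T cell classes were named after their values were seen. T cells, lists and rules were chosen with earlier results of these data known. The 21 lists are described by counts and medians, without a set test. Coordinates came from GENCODE M21, which held 52081 of 55357 gene identifiers, and 79 symbols with more than 1 identifier were kept apart. Promoters came from RefSeq, and 4 of 4 genes sought were found. 3′ counts do not separate overlapping genes or near-identical copies. Scripts were tested on simulated data. Alternatives were DESeq2 1.42.0, no filter on low counts, no TMM factors, a replicate block, each library left out, at least 3 CD3 UMIs, stricter exclusion and under 10% mitochondrial UMIs. Leaving out cells with Schwann cell markers and capping each cell at 5 UMIs a gene were added after seeing the data. The libraries' T cell sums differed beyond sampling noise (chi-square per degree of freedom 1.93 for the AD_ABR pair and 5.12 for the AD pair), so none was counted as a repeat.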

Additional observations from a re-analysis of the deposited data

Results flagged for a closer look

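Each gene below changed differently in T cells than in all other kept barcodes of the same libraries, by edgeR's interaction test with Benjamini-Hochberg adjustment over 18581 genes. The values are the log2 fold change in T cells (AD_ABR minus AD) minus that in the other barcodes.

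Higher in T cells was the change of Gzma, by 6.70 (adjusted p = 6.64e-21), from 1 and 2 UMIs in AD to 87 and 118 in AD_ABR. The glial genes Kcna1 (3.90), Pmp22 (3.79) and Mal (13.1) followed, with nearly all T cell UMIs in 1 barcode of each AD_ABR library; the fitted value of Mal depends on the prior count, since Mal was at 0 in the AD T cells. The killer cell genes Nkg7 (1.29) and Klrd1 (3.27) also differed. So did the receptor genes Trac (2.18), Trbc1 (2.49) and Trdc (3.29), and Il17a (4.63), Ltb (2.91), Cd69 (2.22), Ccr7 (2.64), Ptprcap (2.497), Lef1 (2.22), Ms4a4b (1.64) and Tnfaip3 (1.31). A higher value need not mean a rise in T cells. Of the 99 such genes at least as high in T cells, 4 passed within T cells. In 92 of the 99 the other barcodes of both AD_ABR libraries lay below those of both AD libraries. The T cell share was also lower in AD_ABR, and its part was not tested.

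Lower in T cells was the change of the MHC class II genes Cd74 (-3.33), H2-Ab1 (-2.64) and H2-Eb1 (-2.95), of Wfdc17 (-3.18) and of Mir6236 (-1.65). Isg15 (-1.64), Ikzf2 (-1.89), Rora (-2.08) and Ramp1 (-2.48) also had a lower value. The heat-shock genes Hspa1a (-1.60) and Hspa1b (-1.66) stood at 4782 and 3999 CPM in the T cells of AD 1. Ccl1 (-17.1) had 66 UMIs in AD 1, 65 of them in 1 cell, and 0 in the T cells of the other 3 libraries, so its fitted value is no bound.

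Leaving out 1 library ended some of these calls. Without AD 1 those of Kcna1, Mal, Isg15, Ikzf2, Hspa1a, Hspa1b, Nkg7, Tnfaip3, Ms4a4b, Lef1 and Ccl1 were lost. Without AD 2 those of Wfdc17, Nkg7 and Il17a were lost. Without AD_ABR 1 those of Kcna1, Isg15, Ikzf2, Hspa1a, Hspa1b, Wfdc17, Mir6236, Nkg7, Tnfaip3, Trdc and Il17a were lost. Without AD_ABR 2 those of Isg15, Trac, Ramp1, H2-Eb1, Wfdc17, Nkg7, Tnfaip3, Ms4a4b and Ccl1 were lost.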

How the results depend on the processing

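The T cell share, T cells per B cell and the subset shares kept their size within the spread between libraries under most alternatives. With barcodes holding a Ptprc UMI as the denominator, the log2 difference of the T cell share was -0.059 in place of -1.91. Thinned to 1000 and 500 UMIs a cell, the CD8 difference was 10.97 and 11.2 percentage points (19.1 at full depth), and at 1000 UMIs the residency difference was -5.39 (5.93). The numbers of genes that rose (6), fell (8) or did either (14) depended on the processing. DESeq2 called 14 that fell and 23 in all. Without the filter on low counts 18 rose and 76 fell, 94 in all. With at least 3 CD3 UMIs 14 fell. Stricter exclusion left 2 that rose and 2 that fell, 4 in all, and without Schwann marker cells 2 rose. With each cell capped at 5 UMIs a gene 1 rose and 1 fell, 2 in all. Leaving out 1 library at a time gave 4 to 72 that rose, 4 to 183 that fell and 8 to 255 in all; with 1 library left in a group, that library is assumed to vary like the others. For the interaction, where 105 were higher, 83 lower and 188 either, leaving out 1 library gave 18 to 124, 12 to 100 and 51 to 224, and without TMM factors 158 were higher and 39 lower. TMM placed the median of all genes at -0.01 and its absence at 0.05. The fit with a replicate block called 24 that rose and 61 that fell, 85 in all, the 14 among them. The numbers do not pair the libraries by the labels, and deviations of same-numbered libraries correlated at 0.03. No paired analysis of the shares was run. Signs changed for Cryab without Schwann marker cells (-0.67), for Trdc with the cap (-0.26) and over libraries left out (-1.63 to 1.63), for Il17a with stricter exclusion (-0.012), the cap (-0.18) and libraries left out (-0.070 to 1.44), and for Trac over libraries left out (-0.090 to 0.33). None of these 4 but Cryab had passed. The cause was not tested. The AD_ABR values rest on 30 and 73 cells.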
